A study of Mus musculus with 10 samples.

Results

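The ends of the 19 mouse autosomes were examined for DNA methylation in whole embryos at embryonic day 7.5. On the centromere side, an end was defined as the measured positions with a start below 6000000 in the mm10 build. On the telomere side, it was the positions within 2000000 bp of the last measured position of the chromosome. These rules selected 50242 positions on the centromere side and 39842 on the telomere side, together 90084 of the 2101419 autosomal positions of the table, and left 2011335 positions as the rest. The 38 ends held between 577 positions (chromosome 14, centromere side) and 8811 positions (chromosome 19, centromere side).

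The series holds 5 samples of an arsenic group and 5 of a control group, all of embryos of that age. The labels give neither strain, sex, dose, route nor the number of embryos in a sample. Genomic DNA was measured by reduced representation bisulfite sequencing (RRBS), which tells methylated from unmethylated cytosines in the fragments that an enzyme digest releases, mostly around CpG-rich sequence. The deposited table gives whole-number counts for 10 library columns, numbered only. Of these, 0 could be tied to a sample title, so arsenic was not compared with control. Values of the ends are medians over the 10 columns, mostly given with the lowest and the highest column. Levels of genes and promoters are summed over all columns, and the range over columns is given for some of them only. Summed coverage ran from 73509936 to 127743985 calls per column, the median coverage of an autosomal position from 26 to 48 reads, and no listed position fell under 10 reads in any column. The median coverage was 37 reads on both sides of the chromosomes and 36 in the rest. A level averages all cells of a sample and both alleles, which the counts cannot tell apart. Column 9 deviated most from the other columns at the centromere side, at the telomere side and in the rest, by a mean of 6.82, 6.76 and 7.35 percentage points.

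Mouse chromosomes carry the centromere at one end, so the first assembled sequence follows the satellite repeats of the pericentromere, and the last precedes the TTAGGG repeats of the telomere. Both kinds of repeat form compact chromatin, and the single-copy sequence beside them holds ordinary genes, segmental duplications and multigene families. In the gastrulating embryo most CpGs far from genes have regained methylation after implantation, whereas CpG-rich gene starts mostly remain unmethylated.

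The promoters of 5 genes show what the counts describe at both kinds of end. They were picked with their values known, 3 with a level under 20% and 2 as methylated ones. All are RefSeq promoters of the GRCm38.p6 assembly, the patched form of mm10. Each runs 5′ to 3′ on the strand of its gene, from 250 bases before to 50 bases after the gene start that RefSeq's promoter table uses, with each CG in capitals. For Hoxc4 and Cabp2 that start lies inside the annotated gene, so these windows are not at the gene ends described further on. Cabp2 has 2 promoters in that table, and the one shown was picked by its number of measured positions. RRBS fragments usually begin at CCGG, although the labels do not name the enzyme, and CCGG, the same on both strands, occurs in 53.5% of the autosomal promoters of this length. Suv39h2, which encodes a methyltransferase of histone H3 lysine 9 in constitutive heterochromatin, lies at the centromere-side end of chromosome 2. Cabp2, a calcium-binding protein gene of photoreceptors and hair cells, lies at the centromere-side end of chromosome 19. Hoxc4 is a homeobox gene at the telomere-side end of chromosome 15. Nanos1, an RNA-binding translational repressor gene, lies at the telomere-side end of chromosome 19. Topaz1, a gene of male meiosis, lies at the telomere-side end of chromosome 9.
Suv39h2, chr2:3474937-3475236, minus strand: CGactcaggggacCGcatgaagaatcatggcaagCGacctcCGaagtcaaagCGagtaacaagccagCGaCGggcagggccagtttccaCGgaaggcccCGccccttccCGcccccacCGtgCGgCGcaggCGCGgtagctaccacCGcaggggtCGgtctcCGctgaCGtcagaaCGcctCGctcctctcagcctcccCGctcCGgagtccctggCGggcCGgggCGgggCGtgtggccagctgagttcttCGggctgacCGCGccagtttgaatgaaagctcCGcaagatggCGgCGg
Cabp2, chr19:4083269-4083568, plus strand: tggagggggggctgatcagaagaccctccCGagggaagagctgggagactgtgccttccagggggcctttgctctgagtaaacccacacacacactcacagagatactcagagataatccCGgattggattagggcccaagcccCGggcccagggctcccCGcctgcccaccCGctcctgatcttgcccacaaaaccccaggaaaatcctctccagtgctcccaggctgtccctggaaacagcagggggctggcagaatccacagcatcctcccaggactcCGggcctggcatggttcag
Hoxc4, chr15:103034145-103034444, plus strand: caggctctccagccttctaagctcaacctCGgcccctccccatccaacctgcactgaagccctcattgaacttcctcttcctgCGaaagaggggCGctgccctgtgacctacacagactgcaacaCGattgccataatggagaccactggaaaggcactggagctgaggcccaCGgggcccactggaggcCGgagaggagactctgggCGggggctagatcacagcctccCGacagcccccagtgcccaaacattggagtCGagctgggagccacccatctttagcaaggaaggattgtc
Nanos1, chr19:60755737-60756036, plus strand: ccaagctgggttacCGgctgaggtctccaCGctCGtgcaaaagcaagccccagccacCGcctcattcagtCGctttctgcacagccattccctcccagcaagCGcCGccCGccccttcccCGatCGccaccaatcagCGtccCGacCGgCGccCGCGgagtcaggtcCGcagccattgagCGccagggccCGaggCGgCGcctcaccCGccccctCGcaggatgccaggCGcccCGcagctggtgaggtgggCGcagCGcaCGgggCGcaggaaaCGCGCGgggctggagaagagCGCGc
Topaz1, chr9:122746949-122747248, plus strand: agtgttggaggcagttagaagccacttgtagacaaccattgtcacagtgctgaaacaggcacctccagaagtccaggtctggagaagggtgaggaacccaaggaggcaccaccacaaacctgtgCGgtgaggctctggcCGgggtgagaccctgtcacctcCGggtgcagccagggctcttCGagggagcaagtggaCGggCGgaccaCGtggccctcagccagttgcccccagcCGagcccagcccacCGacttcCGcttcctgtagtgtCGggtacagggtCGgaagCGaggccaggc

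The Suv39h2 promoter, with 33 CG, had 0.491% of its calls methylated over 17 measured positions, with columns between 0% and 0.861%. The Nanos1 promoter, with 34 CG, had 0.992% over 68 positions, with columns between 0.722% and 1.36%. The Hoxc4 promoter has 9 CG and was at 17.4% over 7 positions, with columns between 7.21% and 31.3%. The methylated examples were Cabp2, with 6 CG, at 72.3% over 6 positions (columns 63.4% to 81.2%), and Topaz1, with 13 CG, at 63.8% over 24 positions (columns 57.2% to 74.1%). The columns of both therefore lay above all columns of Suv39h2, Nanos1 and Hoxc4. Of the 167069 measured positions that fall in a RefSeq promoter, 167069 had a C on the listed strand, so the table and the promoter sequences share coordinates.

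With positions of all autosomes pooled, the ends were less methylated than the rest. On the centromere side this held for the pooled positions only: as a median over 19 autosomes, without matching, the centromere side was 1.57 points above the rest of its chromosome and the telomere side −6.11 points from it. Over the columns the centromere side had a lowest mean level of 38.6%, a median of 39.7% and a highest of 41.3%, against 40.2%, 41.2% and 42.9% in the rest. The telomere side had 33.8%, 34.5% and 35.9%. The columns of the telomere side lay below all columns of the rest, whereas those of the centromere side overlapped the rest, although within each column the centromere side was the lower one, by a median of 1.45 percentage points. The telomere side was lower by a median of 6.72 points. Positions with a level under 20% made up 38.8% of the centromere side, 44.97% of the telomere side and 34.4% of the rest, and positions above 80% made up 11.7%, 8.61% and 10.3%.

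The ends also held more of the CpG-dense and gene-proximal positions that carry low levels throughout the genome. Positions within 1000 bp of the start or end of a protein-coding gene made up 31.8% of the centromere side, 34.1% of the telomere side and 26.2% of the rest. Positions with more than 15 measured neighbours within 100 bp made up 28.3%, 32.9% and 25.5%, and their mean levels were 12.7%, 10.6% and 12.7%. Each end was therefore compared with the rest of its own chromosome at an equal number of measured positions within 100 bp. This matched difference is the quantity used from here on, in percentage points and as end minus rest.

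With matching the telomere-side difference shrank, and on neither side did the ends keep a common direction. Over the 19 autosomes the centromere side had a median matched difference of 0.83 points, with columns between 0.41 and 0.97, and the telomere side one of −0.89 points, with columns between −1.02 and −0.48. On the centromere side 10 ends were above their rest and 9 below, and on the telomere side 8 were above and 11 below. In the interior of the chromosomes, 52.0% of stretches of 3000000 bp and 54.1% of those of 2000000 bp were above their rest. Over pooled positions the matched differences were 0.18 and −3.05 points. Chromosomes did not carry 1 sign at both ends as a rule, since the signs matched on 9 of 19. The sign of the telomere-side median turned when the windows were widened to the last 4000000 bp, where it was 0.53 points.

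**Figure D1:**
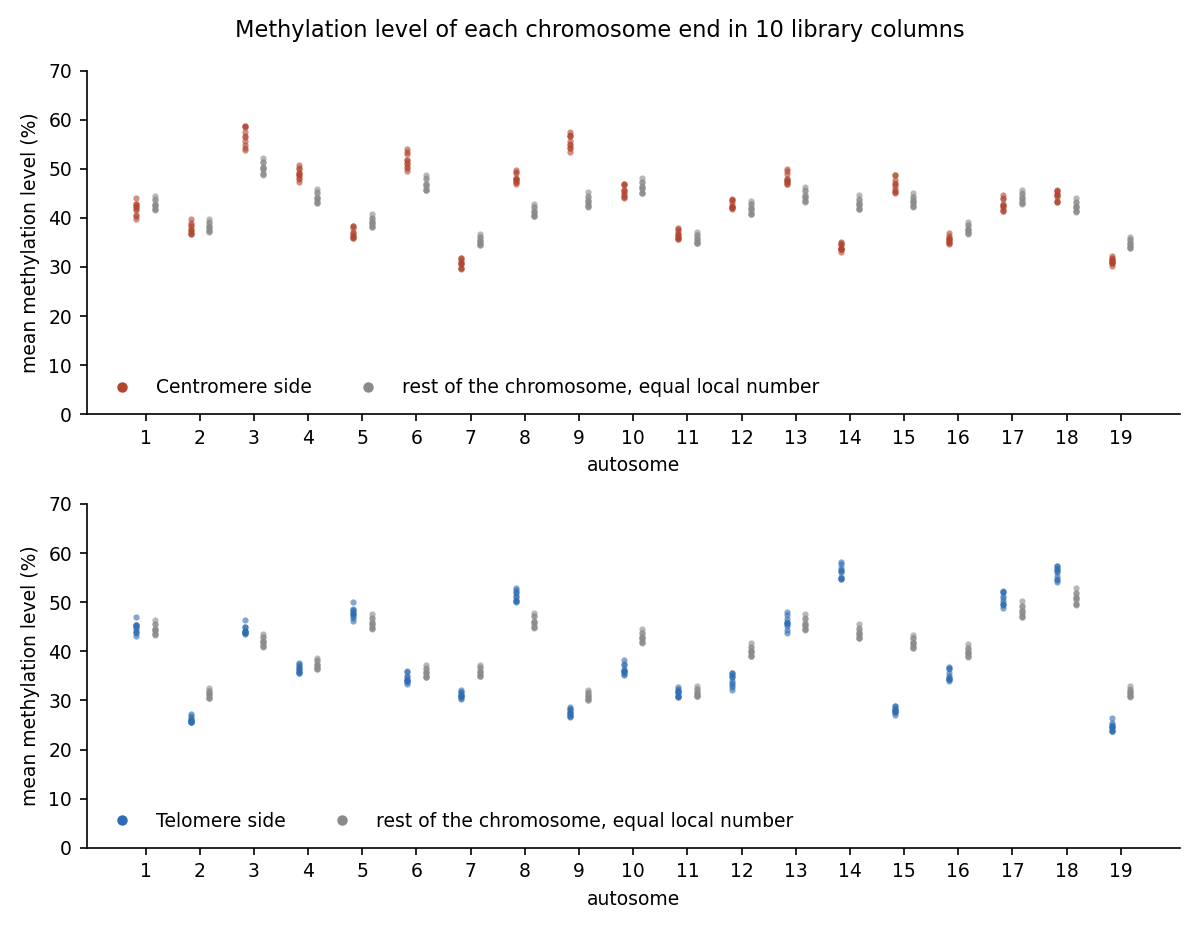
Mean methylation level in percent (vertical axis) of each autosome's centromere-side end (upper panel) and telomere-side end (lower panel) as coloured points, 1 per library column, each beside the rest of its chromosome at equal local number in grey. The lowest end is the telomere side of chromosome 19 at 24.7%, and the highest the centromere side of chromosome 3 at 56.6%.

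Single ends differed by far more than the medians. Matched differences ran between −8.84 and 12.2 points on the centromere side and between −13.7 and 12.4 points on the telomere side. An end was counted where its difference reached 5 points and had 1 sign in all 10 columns. By this rule 3 centromere-side ends were higher and 1 was lower, and 2 telomere-side ends were higher and 5 were lower. Among 758 interior stretches of 3000000 bp, compared in the same way, 14.4% were higher and 6.2% lower by this rule, 20.6% in either direction, against 21.1% of the centromere-side ends. Among 1145 interior stretches of 2000000 bp, 17.4% were higher and 9.87% lower, 27.2% in either direction, against 36.8% of the telomere-side ends. The share on the centromere side was thus near that of the interior, and on the telomere side the 7 ends past the rule are few for reading a difference from the interior. Just inside the rule were the telomere sides of chromosomes 2 and 8, at −5.22 and 5.35 points, and just outside it the centromere side of chromosome 4 at 4.97 and the telomere sides of chromosomes 7 and 18 at −4.89 and 4.87 points.

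**Figure D2:**
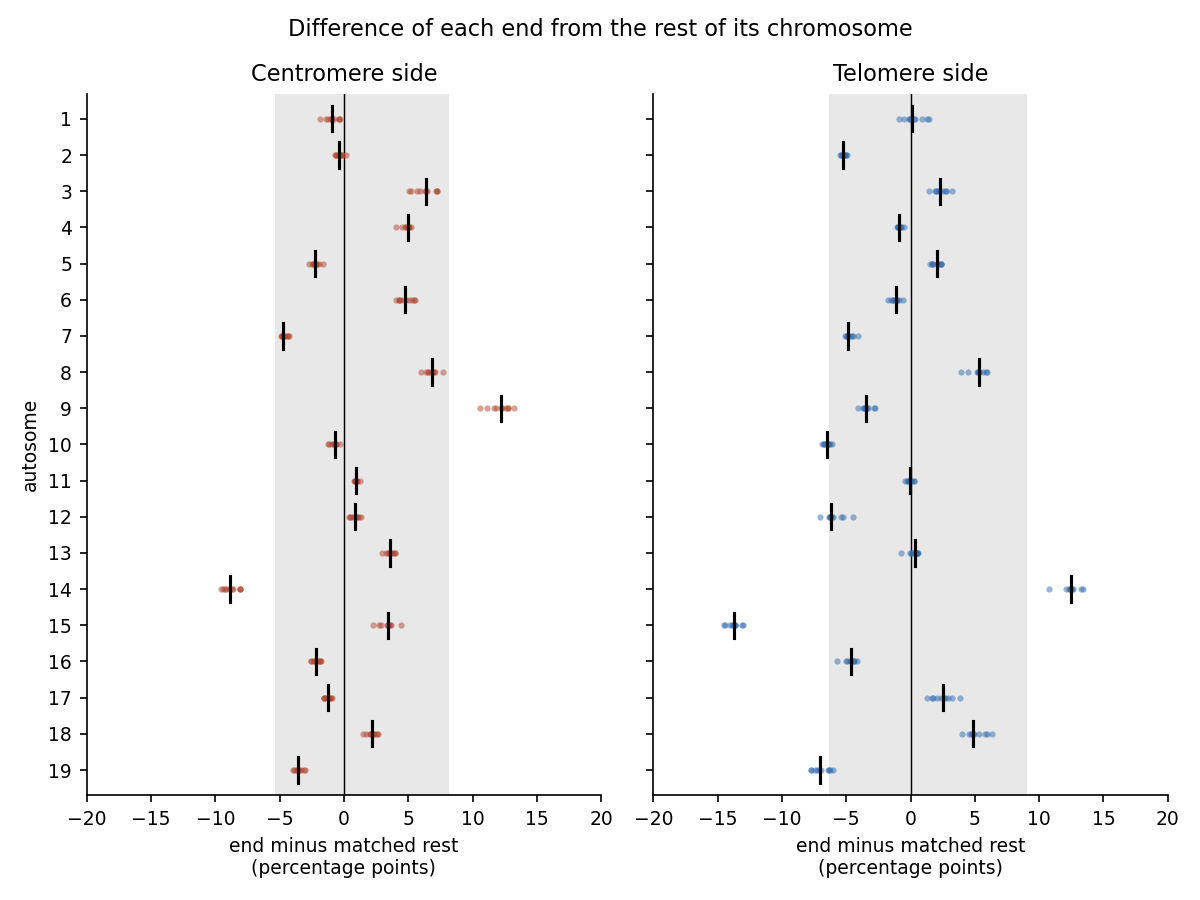
Matched difference in percentage points (horizontal axis) for each autosome (vertical axis), with 1 coloured point per library column and a black bar at their median, for the centromere side (left) and the telomere side (right). The grey band runs from the lowest 5% to the highest 5% of interior stretches of the same length, and the medians of the centromere sides of chromosomes 9 and 14 and of the telomere sides of chromosomes 10, 14, 15 and 19 lie beyond it.

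The centromere-side end of chromosome 9 had the highest difference on that side. Its lowest, median and highest levels over the columns were 53.4%, 55.4% and 57.5%, against 42.2%, 43.3% and 45.2% in the matched rest, and the differences were 10.6, 12.2 and 13.2 points. The groups of columns did not overlap, and the end exceeded all 38 interior stretches of 3000000 bp on that chromosome. Of its 12 blocks of 250 kb, 10 were above their matched rest and 6 held no protein-coding gene. Such block counts describe ends picked for their difference, and no share of interior blocks stands beside them. The largest contribution came from the block between 0.75 and 1 Mb from the outermost measured position, inside Gucy1a2, which encodes a subunit of the nitric oxide receptor guanylate cyclase. That block was at 68.9% over 142 positions, against 34.3% in the matched rest. Its gene ends did not share the high level. The 4 that were measured were at 7.66% or less, among them Gria4, an AMPA receptor subunit gene, at 7.66%, and Cwf19l2 at 1.26%. When place relative to genes was matched along with local number, the difference of the end was 7.82 points.

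The centromere-side ends of chromosomes 8 and 3 followed, and their column ranges overlapped each other but not that of chromosome 9. Chromosome 8 had levels of 46.9%, 47.9% and 49.6%, against 40.3%, 41.3% and 42.9% in the matched rest, a difference of 6.82 points with columns between 6.01 and 7.71. The block around 4 genes of the Cd209 family, C-type lectins of dendritic cells and macrophages, was at 64.7% over 222 positions, against 39.1% in the matched rest. A block without genes between 2.25 and 2.5 Mb reached 71.7%, against 32.3%. Of 27 measured gene ends, 21 were under 20%, and the others included Cd209g at 58.7%, Retn, the gene of the hormone resistin, at 53.2%, and Arhgef18 at 52.5%. Chromosome 3 had a difference of 6.36 points, with columns between 5.10 and 7.28. It held 956 positions, of which 3.35% were at gene ends, and with place also matched the difference was 2.90 points. Its measured genes were Hnf4g, a nuclear receptor gene, at 14.4% and Zfhx4, a zinc finger homeobox gene, at 10.5%, and 7 of its 12 blocks held no protein-coding gene.

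At the other extreme stood the centromere-side end of chromosome 14. Its levels were 33.1%, 33.8% and 35.05%, against 41.8%, 42.8% and 44.6% in the matched rest, and its difference was −8.84 points with columns between −9.57 and −8.06. It lay below all 38 interior stretches of its chromosome. The annotation lists 42 genes named Gm with a number there, 7 of which had 5 or more positions at an end, and their levels ran between 1.84% and 44.9% with a median of 4.49%. Near-identical copies can share or lose reads in such a cluster, which was not tested here. With 577 positions this end had the fewest of the 38. Its coverage summed over columns was 535 reads, against 446 in the matched rest, the widest excess among centromere-side ends. Widening the window to 9000000 reversed the sign, to 3.27 points. Chromosome 7 had a difference of −4.72 points, with columns between −4.92 and −4.27. Of its 12 blocks, 6 were below their matched rest in all columns, such as the one with the calcium channel subunit genes Cacng7, Cacng8 and Cacng6 at 26.1% against 39.9%, whereas the 3 innermost blocks, which hold vomeronasal receptor genes, were at 58.3% to 63.4%. None of the 13 genes of the vomeronasal families there had a measured position, so those levels come from between them. Chromosome 19 had a difference of −3.55 points, with columns between −3.92 and −3.02, and one of 0.47 points once place was matched too. It was the end with most positions, of which 47.1% were at gene ends, against 27.8% in the rest of chromosome 19.

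**Figure D3:**
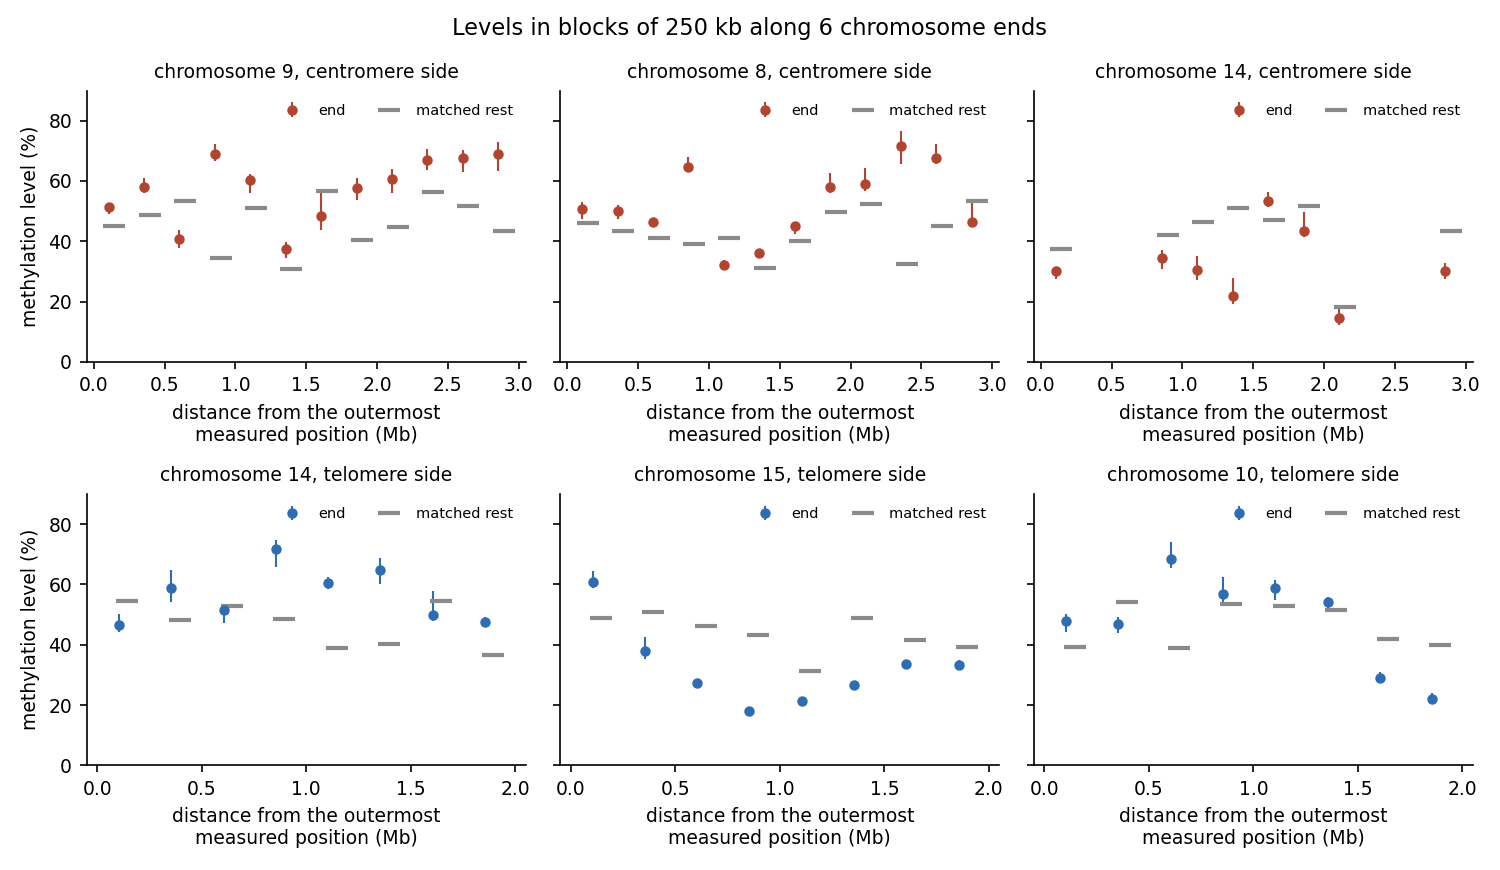
Methylation level in percent (vertical axis) of blocks of 250 kb by distance from the outermost measured position in Mb (horizontal axis) at 6 ends; points are the median and bars the range over 10 library columns, grey dashes the matched rest, and blocks under 20 positions are not drawn. On the telomere side of chromosome 15 the block with most of the HoxC genes is at 17.9%, against 43.1% in its matched rest.

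Telomere-side extremes were further apart. Chromosome 15 had levels of 27.1%, 27.9% and 28.9%, against 40.7%, 41.7% and 43.4% in the matched rest, and a difference of −13.7 points with columns between −14.5 and −13.0. It lay below all 47 interior stretches of 2000000 bp on its chromosome. Of the 8 blocks of 250 kb at this end, 7 were below their matched rest, again without a share of interior blocks beside the count. The HoxC cluster, homeobox genes that pattern the body axis, lies there. The cluster with 1000 bp on each side (chr15:102920131-103037856) held 1044 of the 4305 positions, at a level of 12.5% with columns between 11.9% and 13.1%. Of its 9 genes, 8 had enough positions at an end, and their levels ran between 3.34% (Hoxc13) and 11.9% (Hoxc11). Without the cluster the end was at 32.8%, and its difference was −10.2 points with columns between −10.8 and −9.35.

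Other genes of that end held low and high levels side by side. Cbx5, which encodes heterochromatin protein HP1 alpha, and Hnrnpa1, an RNA-binding protein gene, share a window at 1.13%, and Sp1, a general transcription factor gene, was also at 1.13%. Nfe2, a transcription factor gene of megakaryocytes and red cells, was at 71.6%, and Krt79, a keratin gene, at 60.0%, against 3.50% for the keratin gene Krt18. The strand of Nfe2 was not known, so its measured end could not be called upstream or downstream. Of 40 measured gene ends, 30 were under 20%. Its outermost block, which holds Mucl2, was the only one above its matched rest, at 60.9% against 48.8%.

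Chromosomes 19 and 10 had the next lowest telomere-side differences, with column ranges that overlapped. Chromosome 19 was at 23.7%, 24.7% and 26.5%, against 30.8%, 31.6% and 32.9%, and differed by −7.06 points with columns between −7.73 and −6.00. Of its 14 measured gene ends, 13 were under 20%, among them Emx2, a forebrain and urogenital homeobox gene, at 2.84%, Nanos1 at 1.18%, Eif3a, a translation initiation factor gene, at 0.760%, and Prdx3, a mitochondrial peroxidase gene, at 0.514%. The difference was 0.65 points, of the other sign, when the last 4000000 bp were taken. Chromosome 10 differed by −6.46 points with columns between −6.91 and −6.12. This lay mainly in its 2 innermost blocks, at 29.1% against 42.0% and at 22.1% against 39.9%, which hold genes such as Cdk2 (1.11%), Gdf11, a growth factor gene of axial patterning (0.716%), and Rps26 (0.678%). The outer blocks held 58 olfactory receptor genes, none with 5 positions at an end, and the last 1000000 bp had a difference of 10.97 points, opposite in sign to the whole window. The telomere sides of chromosomes 12 and 2 differed by −6.17 and −5.22 points. On chromosome 12 the 4 blocks nearest the end were at 55.9% to 59.2% and the block with Sp8, a limb and brain transcription factor gene, was at 18.0%. On chromosome 2, 41 of 46 measured gene ends were under 20%.

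The highest telomere-side end was that of chromosome 14. Its levels were 54.7%, 56.3% and 58.1%, against 42.6%, 43.7% and 45.5% in the matched rest, and its difference was 12.4 points with columns between 10.8 and 13.4. It exceeded 57 of 58 interior stretches of its chromosome. With the centromere side of that chromosome at −8.84 points, both ends of chromosome 14 lay far from their rest with opposite signs. The highest blocks lay between 0.75 and 1.5 Mb from the end, at 60.5% to 71.6%, along Nalcn, a sodium leak channel gene, and Itgbl1. The start of Nalcn itself was at 4.33%, and the outermost gene, Fgf14, was at 31.6%. Chromosome 8 differed by 5.35 points, with columns between 3.94 and 5.95, and chromosome 18 by 4.87 points, with columns between 3.98 and 6.37. On chromosome 8 the block at Nrp1, a receptor gene of vessels and axons, was at 29.6% against 55.1%, the reverse of its outermost block at 61.5% against 50.1%. Both chromosomes had 4 measured gene ends, all under 20%.

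In the outermost 100 kb most ends were above their rest. Over the 18 centromere-side ends with at least 20 positions there, the median matched difference was 9.56 points with columns between 7.56 and 12.9, and 15 were above their rest and 3 below. Over the 19 telomere-side ends it was 7.62 points with columns between 5.69 and 9.95, and 13 were above and 6 below. The next 100 kb was at 4.52 and 5.31 points, and beyond 200 kb the steps varied in sign. A size of 5 points or more was reached by 13 centromere-side ends above and 3 below, and by 11 telomere-side ends above and 4 below, against 37.1% of interior stretches of 100 kb above and 26.2% below. The counts of ends above their rest stand against 56.1% of 17202 interior stretches of 100 kb that were above their rest, and 73.4% of the 5365 interior stretches without gene positions. Stretches of that kind, with all positions outside genes, were 14 of the 18 on the centromere side and 4 of the 19 on the telomere side. Of the outermost positions, 82.5% on the centromere side and 59.8% on the telomere side were outside genes, against 32.8% in the rest. With place matched as well, the differences were 6.63 points on the centromere side, with 14 ends above and 4 below, and 4.14 points on the telomere side, with 15 above and 4 below. No share of interior stretches was computed with place matched, so these counts have no background beside them. Without the place match, the share of ends above their rest was 83.3% on the centromere side and 68.4% on the telomere side. Both lay above the 56.1% of all interior stretches. Against the 73.4% of interior stretches without gene positions, the centromere-side share was higher and the telomere-side share lower. The difference of these shares from the interior was not tested.

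**Figure D4:**
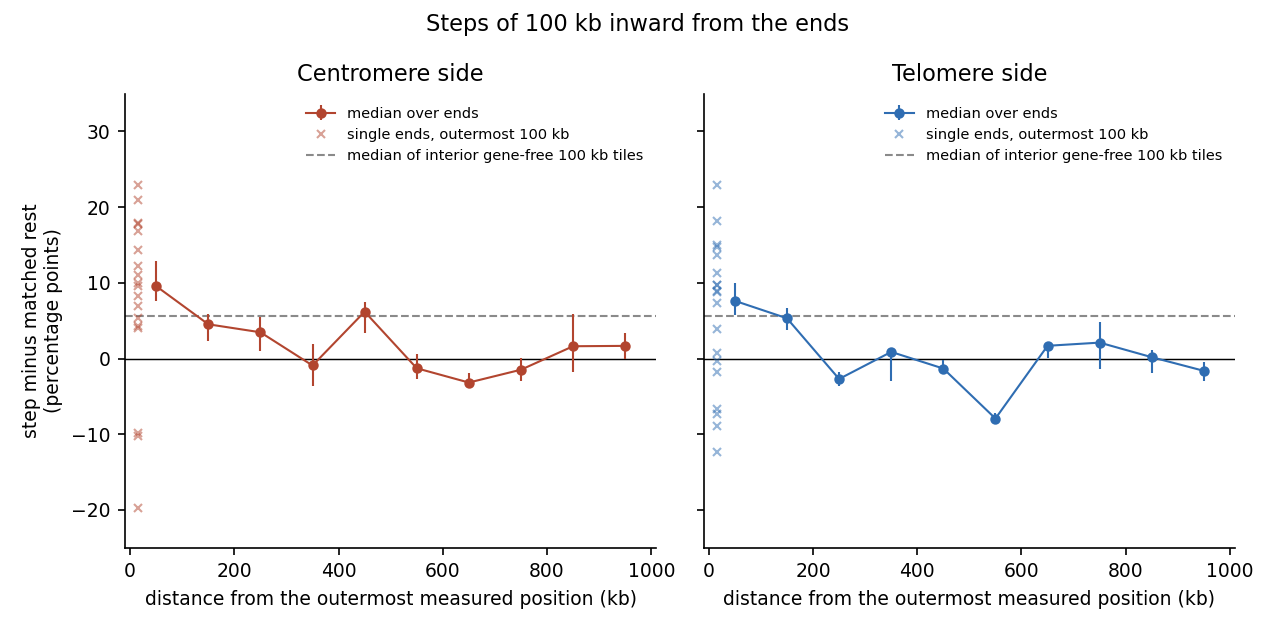
Matched difference in percentage points (vertical axis) of steps of 100 kb inward from the outermost measured position (horizontal axis, kb) as the median over ends with the range over 10 library columns, for the centromere side (left) and the telomere side (right); crosses are single ends in the outermost step. The dashed line at 5.62 points is the median of interior stretches of 100 kb without gene positions.

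Among single outermost stretches, the centromere side of chromosome 11 was highest, with 58.6% over 168 positions against 36.1% in the matched rest, a difference of 22.96 points with columns between 20.4 and 24.3. Chromosome 4 followed with 67.1% over 42 positions against 46.7%, then chromosome 12 with 66.5% over 176 positions against 48.5%. The 3 below their rest were chromosome 14, with 15.2% over 68 positions against 34.5%, chromosome 17, with 20.8% over 198 positions and a difference of −10.2 points, and chromosome 8, with 48.2% over 20 positions against 57.2%. The centromere sides with outermost positions in or near genes were those of chromosomes 14, 17, 11 and 2. Positions of extreme coverage, the top 0.1% of all, made up 2.89% of the outermost centromere-side positions, 0% of the telomere-side ones and 0.0986% of the rest, and the median without them was 9.57 points. Among telomere-side stretches chromosome 12 was highest, with 55.8% over 29 positions against 32.9%, followed by chromosome 19 with 55.2% over 81 positions against 37.9%. Chromosome 14 was lowest, with 41.5% over 51 positions against 54.0%.

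The same windows were then split by place. Centromere-side positions outside genes were more methylated than such positions in the rest of their chromosome, by a median of 4.71 points with columns between 4.11 and 5.63, on 16 of 19 chromosomes. Among interior stretches of 3000000 bp, 62.4% were above by this measure. Centromere-side positions at gene ends were less methylated, by a median of −2.15 points with columns between −3.17 and −1.62, and above their rest on 4 of 19 chromosomes, against 36.4% of interior stretches. Inside genes the centromere side differed by 0.89 points and was above on 10 of 19 chromosomes, against 44% of interior stretches. For the telomere side the medians were −1.82 points at gene ends, where 5 of 19 chromosomes were above against 34.9% of interior stretches of 2000000 bp, −2.79 points inside genes, where 7 of 19 were above against 44.8%, and −0.99 points outside genes, where 8 of 19 were above against 62.2%. The mean levels outside genes were 56.7% on the centromere side, 46.8% on the telomere side and 52.8% in the rest. At gene ends they were 9.52%, 9.95% and 10.3%.

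Across the 19 ends of a side, those with a larger share of positions at gene ends had the lower matched differences. Pearson's r was −0.58 on the centromere side and −0.53 on the telomere side, and with the mean level in place of the difference it was −0.84 and −0.80. These points come from the same 10 columns, and both quantities depend on which sequence the digest released, so they are a description only.

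Most protein-coding genes within the windows had low levels at their measured end, as had those of the rest. The level of a gene is that of the 2000 bp around whichever of its ends had more measured positions, over at least 5 positions. On the centromere side 421 protein-coding genes had a median of 2.45% and 343, or 81.5%, were under 20%. Telomere-side genes numbered 327, with a median of 2.77% and 262, or 80.1%, under 20%. In the rest 12851 genes had a median of 2.62%, and 78.1% were under 20%. Where strand was known, the level could be assigned to the upstream or downstream end. In the narrower promoters of 300 bases the medians were 1.19%, 1.25% and 1.17% over 223, 195 and 7306 measured promoters. By the end used, the upstream medians were 1.81%, 1.63% and 1.93% over 267, 225 and 8837 genes. The downstream medians lay further apart, at 31.5% over 54 centromere-side genes and 43.3% over 39 telomere-side genes, against 54.5% over 1363 genes of the rest, with 42.6%, 30.8% and 25.4% of them under 20%. Which end is used follows the measured positions, and the differences between these medians were not tested.

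The highest centromere-side genes were Acy3, an aminoacylase gene, at 83.0%, Trap1 and Dnase1, a mitochondrial chaperone and a nuclease gene that share a window, at 80.2%, Ppp1r12c at 79.9% and Doc2g at 79.0%. All of these except Acy3 were measured at their downstream end. The lowest was Urgcp, with 0 of 1015 calls methylated, which allows up to 0.377% (95% Wilson interval, counting error only). Optn, an autophagy receptor gene, was at 0.265%, Ubxn2a at 0.315%, Pola2, a subunit gene of DNA polymerase alpha, at 0.506% and Sec61a2 at 0.532%.

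On the telomere side LOC108167320, 0.05 Mb from the end of chromosome 9, was highest at 93.8%, followed by the downstream ends of Ccnl2 at 88.9% and Mrpl12 at 82.6%, and by the upstream ends of Mettl7b at 78.5% and Lime1 at 78.0%. The lowest were Paip1 at 0.328%, Brca2, the homologous recombination gene, at 0.441%, Bloc1s1 at 0.509%, Prdx3 at 0.514% and Acap3 at 0.564%. These highest and lowest genes are given as a description.

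**Figure D5:**
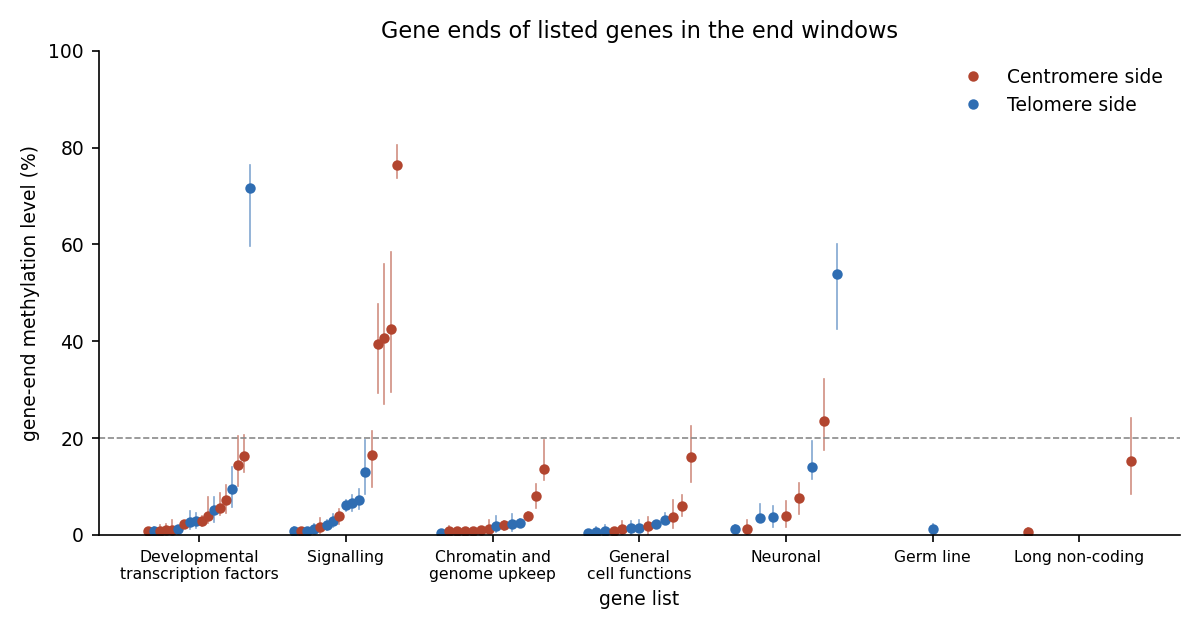
Gene-end methylation level in percent (vertical axis) of 74 listed genes within the end windows, by gene list (horizontal axis); points give the level over all calls and lines the range over 10 library columns, coloured by side. Of the 7 genes above the dashed line at 20%, 5 lie on the centromere side and 2 on the telomere side.

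Of 96 listed genes near the ends, 74 had 5 or more positions at an end inside the windows, 15 had fewer and 7 were outside. Of all measured protein-coding genes, 81.5% on the centromere side, 80.1% on the telomere side and 78.1% in the rest were under 20%. Where the upstream end was used, these shares were 88.0%, 90.2% and 86.7%. The list counts that follow stand against these shares. Among developmental transcription factors 17 of 18 were under 20%. They included Sox17, which specifies endoderm, at 16.4%, Sox18, of the endothelium, at 9.38%, Gata5, of heart and gut, at 5.17%, and Zeb1, of epithelial to mesenchymal transition, at 1.01%, and the exception was Nfe2. Among signalling genes 13 of 17 were under 20%. Fgf3, Fgf4 and Fgf15, growth factor genes in 1 stretch of the chromosome 7 telomere side, were at 6.23%, 6.51% and 7.30%, and Dvl1 and Fzd1 of the Wnt pathway were at 1.96% and 0.874%. The 4 exceptions were all on the centromere side. They were Lrp5, a Wnt coreceptor gene, at 76.5%, the neighbouring cytokine genes Osm at 42.5% and Lif at 39.3%, and Esr1, the oestrogen receptor gene, at 40.6%. Lif and Esr1 were measured at their upstream end. For Lrp5, Osm and Nfe2 the strand was not known, so the measured end could not be called upstream or downstream. Osm and Esr1 rested on 6 positions each, with columns between 29.5% and 58.3% for Osm and between 27.0% and 56.0% for Esr1.

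All 14 measured genes of chromatin and genome upkeep were under 20%. Brca2, Asxl2 (0.727%), Suv39h2 (0.737%), Crebbp (0.751%) and Kmt5b (0.824%) were under 1%, and Morc2a, a gene of heterochromatin silencing, was highest at 13.6%. Rtel1, a helicase gene of telomere maintenance that itself lies 0.67 Mb from the telomere-side end of chromosome 2, was at 1.79%. All 13 genes of general cell functions were under 20%, with Cpt1a, of fatty acid oxidation, highest at 16.0%. Of 9 neuronal genes 7 were under 20%, and the others were Gabrd, a GABA receptor subunit gene, at 53.9% and Rbfox1, a splicing factor gene, at 23.6%. Rbfox1 was measured at its upstream end, whereas the strand of Gabrd was not known. Of the 5 genes listed for the germ line, Nanos1 was the only one measured inside the windows. Topaz1, which was not on that list, was at 66.0%. The long non-coding RNA genes Malat1 and Neat1, neighbours on the centromere side of chromosome 19, were at 0.703% and 15.4%, with columns of Neat1 between 8.38% and 24.1%. Under 20% were 67 of the 74 listed genes, against 81.5% and 80.1% of all measured protein-coding genes on the centromere and telomere sides. The list was not compared with other genes by a test.

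By standard deviation, the columns varied about as much at the ends as elsewhere. The standard deviation of a position's level over the 10 columns averaged 8.42 points on the centromere side and 8.60 in its matched rest (medians over 19 chromosomes), and 8.19 points on the telomere side and 8.38 in its rest. It was higher than the rest at 6 of 19 centromere-side and 9 of 19 telomere-side ends. The widest excess was at the centromere side of chromosome 3, at 11.2 points against 9.72. The variance over columns beyond counting error was 52.0 squared points on the centromere side and 52.2 in its rest. On the telomere side it was 50.9 and 50.4. This variance was higher than the rest at 7 of 19 centromere-side and 9 of 19 telomere-side ends. Both strands of a CpG gave similar levels, with a median absolute difference of 2.04 points on the centromere side, 1.93 on the telomere side and 2.30 in the rest.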

How the data were processed

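Genomic DNA of mouse embryos was measured by RRBS. The tools named are Trim Galore, Bismark and methylKit and the build is mm10, per the submitters' processing notes, with their versions and settings not given in the sources used here, nor what each tool did. The deposited values are raw counts per cytosine position, per the file headers: reads covering it, methylated reads and unmethylated reads, for 10 numbered library columns. Of 2137826 rows, 2 repeated a position and were left out, which kept 2137824 positions, each with at least 10 reads in every column. Strands were listed separately.

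The columns carry numbers only, so 0 were tied to a sample, the planned comparison of arsenic with control was not run, and no test was made between columns. The level is methylated reads over coverage, in percent, and means weight positions equally. For each end, levels were compared with the rest of its chromosome, reweighted to the same numbers of measured positions within 100 bp (single numbers up to 30, then 31 to 40 and above; at least 20 rest positions each), and the median over 19 autosomes was taken. Interior stretches of equal length with at least 100 positions gave the background. A size rule of 5 percentage points with 1 sign in all 10 columns was used.

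Gene levels are summed calls within 1000 bp of a gene start or end, over at least 5 positions, with genes, strands and promoters from RefSeq tables of GRCm38.p6. A sum takes calls as independent, so intervals are too narrow where reads cover several positions, and they cover counting error only. Named were the 3 highest and 3 lowest ends and the 5 highest and 5 lowest genes of each side, ends past the size rule, and listed genes, and further genes were named where they lie in a block described. The members, lists and printed promoters were chosen with earlier results of these data known. The matched difference was tested on simulated data with known shifts. There the level depended, within a chromosome, only on the number of measured positions within 100 bp and on the shift. This checked the computation, and not how place or neighbouring sequence bears on the measured levels. Python 3.11.15, numpy 2.4.6, pandas 2.3.3, scipy 1.17.1 and matplotlib 3.10.9 were used.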

Additional observations from a re-analysis of the deposited data

Results flagged for a closer look

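In 4 of 42 measures over the 10 library columns, 1 column stood apart from the others by Dixon's criterion for 10 values, which weighs the gap to the next column against the whole range. Chance gives about 1 in 20 such measures, and the columns could not be assigned to the arsenic or the control group. On the centromere side of chromosome 11, column 10 had a difference of 1.26 points, the next column 1.04 and the lowest 0.81. The other 3 were telomere-side ends. On chromosome 13, column 6 was at −0.77 points, the next at −0.04 and the highest at 0.59. On chromosome 14, column 2 was at 10.8 points, the next at 12.1 and the highest at 13.4. On chromosome 16, column 3 was at −5.69 points, the next at −4.98 and the highest at −4.17. The columns that stood apart were different in each.

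The ends of the X chromosome were outside the rule. By the same windows and matching, the centromere side of X was at 68.8% over 362 positions, against 51.2% in its matched rest, 17.5 points higher with columns between 16.2 and 18.4. The telomere side was at 55.6% over 372 positions, against 45.8%, 9.96 points higher with columns between 6.30 and 12.9. Both exceeded the centromere-side and telomere-side medians of the autosomes in all 10 columns. Single autosomal ends reached 12.2 points on the centromere side and 12.4 on the telomere side, the latter above the telomere side of X. No share of interior stretches of X stands beside these values. The labels do not give embryo sex.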

How the results depend on the processing

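The medians over 19 autosomes depended on the settings, and the cause was not tested. The centromere-side difference of 0.83 points was 1.25 with at least 20 reads in each column, 2.75 with positions weighted by coverage, 1.57 without matching, 1.501 with place matched too, 0.41 and 2.08 with limits of 4500000 and 9000000, and 0.18 with positions pooled. The telomere-side difference of −0.89 points was −1.57, −1.14, −6.11 and −0.31 under the first 4 of these, −1.39 with a radius of 50 bp, −0.19 and 0.53 with the last 1000000 and 4000000 bp, and −3.05 with positions pooled. Leaving out 1 chromosome gave 0.24 (without chromosome 3) to 0.90, and −0.97 to −0.56 points, and leaving out 1 column 0.81 to 0.84, and −0.93 to −0.84.

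With a size of 3 points, 7 centromere-side ends were higher and 3 lower. On the telomere side 8 ends were lower, and those of chromosomes 8, 14 and 18 were higher. With 10 points the counts were 1 and 0 on the centromere side and 1 and 1 on the telomere side. With at least 20 reads they were 5 and 2 on the centromere side, with 1 higher on the telomere side, and with place matched 3 telomere-side ends were lower. Without 1 column, 3 to 4 centromere-side ends were higher. The share of interior stretches was computed only for 5 points under the main settings, so none stands beside these counts.

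For the 12 named ends 229 alternatives were computed. In 156 the difference moved by less than its standard deviation over columns, in 70 by that much or more, and 3 changed sign. A change of sign was counted only where the main difference reached the size rule. Of the named ends past the rule, 3 changed sign with the window. The centromere side of chromosome 14 went to 3.27 points (limit 9000000). The telomere sides of chromosomes 19 and 10 went to 0.65 (last 4000000 bp) and 10.97 (last 1000000 bp). Named ends short of the rule were not counted as changing sign. One of them, the centromere side of chromosome 19, changed sign once place was matched too.

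The outermost 100 kb and the split by place were chosen after seeing the data. The outermost centromere-side difference of 9.56 points was 7.53 with at least 20 reads, 11.2 with a radius of 50 bp, 19.4 without matching, 6.63 with place matched, and 12.1 and 7.13 for 50 and 200 kb. The telomere-side one of 7.62 points was 2.94, 9.35, 14.1, 4.14, 4.01 and 6.14. Leaving out 1 chromosome gave 9.22 to 9.89, and 6.11 to 8.18, and leaving out 1 column 9.55 to 9.57, and 7.33 to 7.91. Outside genes the centromere-side difference of 4.71 points was 5.98 with at least 20 reads and 4.55 to 4.96 without 1 chromosome, and the telomere-side one of −0.99 was −2.35 to −0.80.

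Median gene-end levels of 2.45% and 2.77% were 4.93% and 6.23% with 2000 bp on each side, and 1.19% and 1.25% in promoters, and leaving out 1 column gave 2.43% to 2.55%, and 2.63% to 2.78%. No paired analysis was possible because the library columns carry no replicate numbers that could be tied to samples. The table holds shared positions only, so sequence covered in fewer columns was not analysed here, and at 10 reads a single position's level moves in steps of 10 percentage points.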
